A study of Homo sapiens with 6 samples.

Results

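The step from 10 to 20 µM PTUPB in the presence of enzalutamide was examined in C4-2B MDVR cells, an enzalutamide-resistant human prostate cancer line derived from C4-2B. The comparison sets 1 RNA-seq library (PTUPB 20 µM plus enzalutamide) against 1 library (PTUPB 10 µM plus enzalutamide), out of 6 libraries in the series. PTUPB inhibits both cyclooxygenase-2 and the soluble epoxide hydrolase of eicosanoid metabolism, and enzalutamide is an antiandrogen. The other 4 libraries were cells given DMSO as the control, enzalutamide alone at 20 µM, PTUPB alone at 10 µM and PTUPB alone at 20 µM. All 6 were treated for 2 days. The labels give the enzalutamide dose for the single agent and not for the combinations, so an equal dose in both combinations is assumed and not stated. Of 58735 genes in the deposited table, 12960 had a mean of 1 or more FPKM over the 6 libraries and were analysed. Of these 10693 were protein coding. FPKM is fragments per kilobase of exon, here as scaled by the authors. With 1 library a side there is no replicate check and no test across conditions: values are differences between these libraries, whatever their cause, and counting intervals cover counting error only.

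Prostate luminal cells and the cancers that keep their identity depend on androgen signalling, which with lineage factors such as FOXA1 and HOXB13 sets a program of secreted kallikreins, lipid synthesis and growth. Unfolded protein in the endoplasmic reticulum activates 3 sensors: ATF6, which induces chaperones, IRE1, which splices XBP1 mRNA, and PERK, which phosphorylates eIF2 and favours translation of ATF4. ATF4 then induces CHOP (DDIT3), ATF3 and genes of amino acid supply, and prolonged signalling is known to arrest or kill cells. Cell cycle arrest lowers 2 waves of transcripts, the replication genes driven by E2F factors and the mitotic genes driven by MYBL2 and FOXM1.

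Depth, recovered as whole fragments from the deposited values, was 25627945 fragments in the lower-dose combination and 20156523 in the higher-dose combination, and 22368705 to 29450436 in the other libraries. The 11 luminal markers checked were all at 1 FPKM or more in the lower-dose combination, and 9 of 11 were in the higher-dose combination, where their summed level was 342 FPKM against 965. No marker of basal epithelium, blood, endothelium or neuroendocrine cells reached 1 FPKM in any library, and of 5 stromal markers only COL1A1 did, at 3.67 and 6.47 FPKM. The mitochondrial genome took 13.8% of fragments in the lower-dose combination and 7.12% in the higher-dose combination. FPKM is per length, so levels can be set beside each other between genes. Reads of near-identical genes may be shared and no source used here states whether counting used strand. This makes uncertain the values of the kallikreins KLK2 and KLK3, the UGT2B, HSPA1, histone, metallothionein, ferritin and ribosomal protein genes, mitochondrial genes with nuclear copies, and overlapping or antisense genes. The genes the results turn on were located by an own match to GENCODE 29 (GRCh38), which places GADD45A (ENSG00000116717) at chr1:67685061-67688338 (plus strand), DDIT3 (ENSG00000175197) at chr12:57516588-57521737 (minus strand), FOXA1 (ENSG00000129514) at chr14:37589984-37596059 (minus strand) and CDC20 (ENSG00000117399) at chr1:43358955-43363203 (plus strand). Fewer cells of a kind and less RNA per cell cannot be told apart in such libraries.

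Differences are given as log2(FPKM + 1) at 20 µM minus 10 µM, called the dose step, and a gene was counted as higher or lower at a dose step of log2 1 or more in size. By that rule 1775 genes (13.7%) were higher and 1900 (14.7%) lower at 20 µM with enzalutamide, 3675 in all (28.4%). The shares of 13.7% and 14.7% are what each count of list members below is to be set beside. In the protein-coding set 1417 were higher and 1409 lower. A dose step of log2 2 or more was seen for 246 genes upward and 383 downward, and one of log2 4 or more for 5 upward and 15 downward. The median dose step of all genes was 0.03. Among the genes analysed 57 had no fragment at 20 µM with 50 or more at 10 µM, against 5 genes in the opposite order. These counts are not on equal terms. A gene absent from every library without 20 µM PTUPB can pass the filter on mean FPKM only through the 20 µM libraries. The minimum of 50 fragments is also a higher level in the library of less depth. The split of calls depended on scaling, and the deposited values are not scaled exactly by the total of recovered fragments. When the values were scaled by total fragments the median of all genes moved to -0.11 with 1329 higher and 2254 lower (37.1% higher against 48.3% as deposited), and when centred on housekeeping genes it moved to -0.13 with 1322 and 2391 (35.6% higher). The split also depended on how low genes were treated: among the 7256 genes with a mean of 5 or more FPKM 1239 were higher and 904 lower (57.8% higher), and with a pseudocount of 5 in place of 1 the counts were 867 and 548 (61.3% higher).

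The same dose step without enzalutamide comes from 2 other libraries, so it was set beside the step with enzalutamide. Without enzalutamide 1202 genes (9.27%) were higher and 1692 (13.1%) lower, 2894 in all (22.3%), and the median size of the step over all genes was 0.52 against 0.63 with enzalutamide. Of the genes higher with enzalutamide 40.6% were also higher without it, and of those higher without it 60.0% were also higher with it. For lower genes the shares were 55.1% and 61.9%. In all 721 genes were higher and 1047 lower in both steps, and 77 went past log2 1 in opposite directions, 47 of them upward with enzalutamide. Across the 12960 genes, which are not independent replicates, Pearson's r between the steps was 0.712 and Spearman's rho 0.710. The step with enzalutamide exceeded the step without it by log2 1 or more for 859 genes and lay below it by as much for 687. These comparisons of the 2 steps are on the deposited scale and depended on it. Rescaled to TPM, the median step of all genes was 0.28 without enzalutamide and 0.06 with it, and 2524 genes were higher and 1601 lower without enzalutamide, so that calls without enzalutamide leaned upward. On that scale the step with enzalutamide exceeded the other by log2 1 or more for 756 genes and lay below it for 1835, and with scaling by total fragments for 606 and 1020. Of 48 lists with 5 or more members 31 had the higher median with enzalutamide as deposited and 23 on the TPM scale. The order of the 2 medians turned on the TPM scale in 8 lists: IRE1 and XBP1 branch, tRNA synthetase, BCL2 family, LXR, fatty acid synthesis, autophagy, antigen presentation and housekeeping genes.

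**Figure D1:**
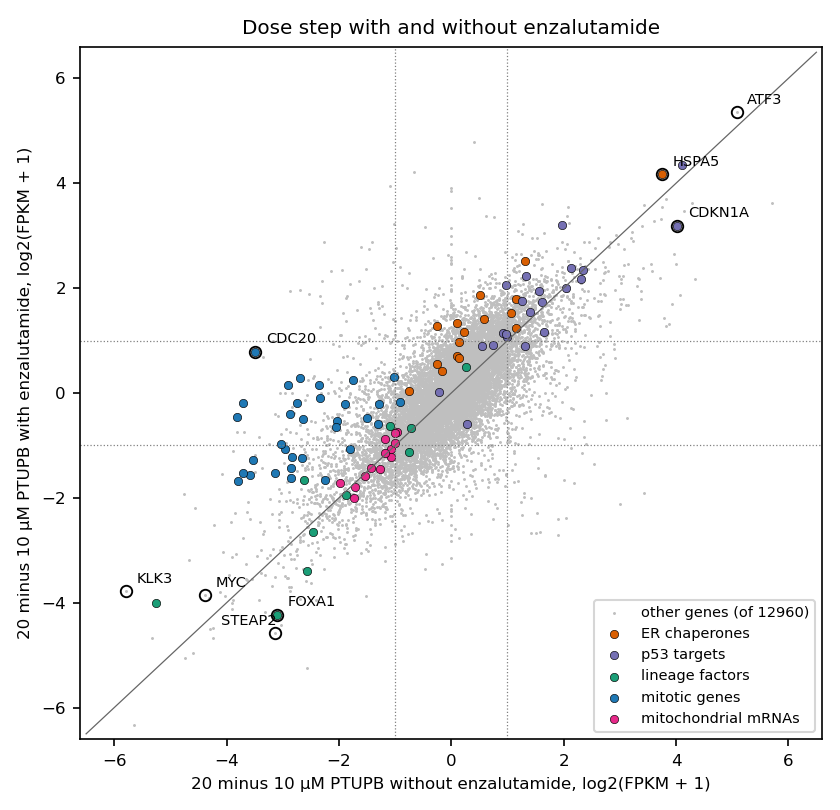
Each point is 1 of 12960 genes, with the 20 minus 10 µM difference in log2(FPKM + 1) without enzalutamide on the x axis and with enzalutamide on the y axis (1 library a side). Coloured points are members of 5 gene lists, rings mark 8 named genes, dotted lines mark log2 1 and the diagonal marks equal steps. Most points lie along the diagonal (Pearson's r 0.712), chaperones lie above it, and mitotic genes lie to the left, at steps between 0.79 and -1.68 on the y axis.

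The endoplasmic reticulum chaperones and ATF6 targets were higher at 20 µM with enzalutamide. Of 16 members analysed 10 were higher and 0 lower, beside 13.7% of all genes higher, and the median step was 1.26 against 0.03 for all genes. Without enzalutamide 5 of 16 were higher and the median was 0.18. HSPA5 (BiP), the main chaperone of the endoplasmic reticulum and the repressor of the 3 sensors, stood at 294 FPKM in the control, 403 with enzalutamide, 439.6 and 5919 with PTUPB alone at 10 and 20 µM, and 574 and 10392 in the combinations at 10 and 20 µM. It was the most abundant transcript by fragments in the higher-dose combination, with 3.7% of them (745084 fragments), and it was 18.1-fold higher than at 10 µM (counting interval, 95%, 18 to 18.3). Both 20 µM libraries stood above all the others. HERPUD1, a component of the degradation machinery of the endoplasmic reticulum, stood at 49.1 and 287 FPKM in the combinations and at 39.7 and 100.1 with PTUPB alone, a step of 2.52 with enzalutamide and 1.31 without. MANF, a secreted stress-induced factor, went from 64.8 to 239 FPKM with enzalutamide and from 85.9 to 123 without, and the chaperone HYOU1 from 71.3 to 249 and from 72.1 to 161.

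A subset of the folding genes differed between the dose steps in whether they passed log2 1. HSP90B1 (GRP94) had a step of 1.34 with enzalutamide and 0.11 without, and the calcium-binding lectin chaperone CALR had 1.27 and -0.25. CALR stood at 408 FPKM at 10 µM with enzalutamide, below its 578 with enzalutamide alone, and at 989 at 20 µM. The protein disulfide isomerases were nearer to 0 with enzalutamide, from 0.04 for PDIA4 to 0.70 for PDIA3, and from -0.75 to 0.10 without. No test of the difference between the steps was possible with 1 library a side.

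The ER stress element, to which ATF6 binds with the factor NF-Y, has the letters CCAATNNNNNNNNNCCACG, and a related element, ER stress element II, has ATTGG and CCACG set apart by 1 base, so that both end in the same 5 letters. Stretches of RefSeq promoters (GRCh38.p14) upstream of the RefSeq start site are shown for 6 of the 10 members of the chaperone list and the IRE1 and XBP1 list whose promoters hold these letters, as examples of both elements, each 5′ to 3′ on the gene's strand with matches on either strand in capitals.
HSPA5 (chr9:125241344-125241473, minus strand): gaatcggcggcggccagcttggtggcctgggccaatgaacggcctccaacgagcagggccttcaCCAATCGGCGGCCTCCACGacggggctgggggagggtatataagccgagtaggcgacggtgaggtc
HSP90B1 (chr12:103930190-103930409, plus strand): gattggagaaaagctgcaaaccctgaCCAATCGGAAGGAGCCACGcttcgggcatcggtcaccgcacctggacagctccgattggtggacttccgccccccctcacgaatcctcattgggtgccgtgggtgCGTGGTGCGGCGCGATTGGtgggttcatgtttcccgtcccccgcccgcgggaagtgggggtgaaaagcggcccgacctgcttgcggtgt
HYOU1 (chr11:119057206-119057405, minus strand): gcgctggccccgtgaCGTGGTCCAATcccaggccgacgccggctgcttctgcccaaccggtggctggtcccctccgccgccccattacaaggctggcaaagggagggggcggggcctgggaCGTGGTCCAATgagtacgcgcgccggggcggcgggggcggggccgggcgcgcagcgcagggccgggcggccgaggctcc
CALR (chr19:12938369-12938608, plus strand): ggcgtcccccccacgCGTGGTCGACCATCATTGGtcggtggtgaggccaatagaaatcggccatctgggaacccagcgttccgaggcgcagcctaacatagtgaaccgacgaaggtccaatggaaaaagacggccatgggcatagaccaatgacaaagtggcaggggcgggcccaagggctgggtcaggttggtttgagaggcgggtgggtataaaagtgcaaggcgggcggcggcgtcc
HERPUD1 (chr16:56932012-56932141, plus strand): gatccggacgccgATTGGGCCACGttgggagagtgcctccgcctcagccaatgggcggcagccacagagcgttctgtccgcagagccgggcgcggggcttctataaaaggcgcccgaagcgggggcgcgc
XBP1 (chr22:28800570-28800699, minus strand): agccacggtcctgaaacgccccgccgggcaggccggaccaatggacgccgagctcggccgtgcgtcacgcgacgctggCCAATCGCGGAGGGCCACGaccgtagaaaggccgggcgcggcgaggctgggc

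Searched on both strands, the first element was found in 27 of 35116 promoter windows of 300 bases (0.0769%) and the second in 19 (0.0541%). Of the analysed genes 28 held either, and 11 of these were higher and 0 lower at 20 µM with enzalutamide, with a median step of 0.70, beside 13.7% and 14.7% of all genes. They included genes outside the chaperone list, such as FICD, an enzyme that modifies BiP, at 2.09, SERP1, a translocon-associated protein, at 2.17, and ERO1B, an oxidase of the folding pathway, at 1.13. Other genes outside it that held an element lay within log2 1 of 0, such as TRIM5 (0.12), RAD9A (0.09), GYS1 (-0.23) and PLS3 (-0.31). Of the 11 higher genes 6 were in the chaperone list. Within the chaperone list 9 members held either element, 6 of them higher with a median of 1.27, and 7 members held neither, 4 of them higher with a median of 1.24. The members that hold a match and are not shown are CANX (0.98), CRELD2 (0.66), PDIA6 (0.55) and SDF2L1 (1.16). A match describes letters in these windows and not binding.

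Genes of the IRE1 and XBP1 branch went the same way to a smaller extent: 5 of 16 were higher and 0 lower with a median of 0.75, and 6 were higher without enzalutamide with a median of 0.55. DNAJB9, a co-chaperone that restrains IRE1, went from 19.2 to 156 FPKM with enzalutamide (step 2.96). The other 4 higher members were the coat protein SEC24D (1.94), the signal recognition subunit SRP54 (1.53), HSPA13 (1.50) and ERN1, which encodes IRE1 (1.12). XBP1 itself stood at 233 and 389 FPKM, a step of 0.73, which is a gene level and does not separate spliced from unspliced mRNA. EDEM1, a lectin of the degradation pathway, had 0.23 with enzalutamide and 1.34 without.

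In the integrated stress response list, which holds the eIF2 kinases, ATF4 and its targets, 10 of 18 members were higher and 1 was lower, with a median of 1.20 against 1.36 without enzalutamide. ATF3, a stress-induced transcription factor, had the largest upward step of all genes that met the minimum levels set for naming. It stood at 4.62 FPKM in the control, 7.32 with enzalutamide, 5.08 and 205 with PTUPB alone, and 9.99 and 450.5 in the combinations, 45.1-fold higher at 20 than at 10 µM (counting interval 42.4 to 48). Only the 20 µM libraries were above 10 FPKM. DDIT3 (CHOP), a pro-apoptotic factor of the PERK branch, stood at 23.5 FPKM with enzalutamide, 43 at 10 µM and 440.3 at 20 µM, a 10.2-fold difference between the doses against 13.8-fold without enzalutamide. PPP1R15A (GADD34), which returns eIF2 to its active form, had 3.16, and the pseudokinase TRIB3 2.10. ATF4 mRNA, which is regulated mainly at translation, stood at 265 and 305 FPKM, a step of 0.20. ATF5 was the lower member at -1.92. CHAC1, a glutathione-degrading enzyme and ATF4 target, had -0.40 with enzalutamide and 0.85 without.

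A C/EBP-ATF composite element, TGATGNAA, which ATF4 binds with C/EBP partners, was found in 4 of the 25 promoter windows of this list (16%). It was in 3.62% of all windows and 1.89% of the windows of analysed genes. By gene, 4 of the 16 members with a window held it, and 3 of them were higher, beside 10 of 18 in the list. CEBPG, a C/EBP partner of ATF4 whose step was 1.77, is shown as an example, with the match in capitals.
CEBPG (chr19:33374033-33374112, plus strand): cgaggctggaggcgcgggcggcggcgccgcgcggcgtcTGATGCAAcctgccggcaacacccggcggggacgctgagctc

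The genes that ATF4 is known to induce for amino acid supply did not follow the list above. Of 18 amino acid synthesis and transport genes 1 was higher and 5 were lower, beside 13.7% and 14.7% of all genes, with a median of -0.41. SLC3A2, the heavy chain shared by several amino acid exchangers, went from 81.3 to 506 FPKM (step 2.62, against 1.55 without enzalutamide). Its light chain for large neutral amino acids, SLC7A5, went the other way, from 145 to 36.7 FPKM (-1.96). The other lower members were PSAT1 (-1.71) and PSPH (-1.37) of serine synthesis, the glutamine transporter SLC38A2 (-1.30) and CBS of transsulfuration (-1.20). ASNS, asparagine synthetase, had 0.16. The cystine transporter SLC7A11 stood at 42.4 and 28.7 FPKM in the combinations and at 34.1 and 70.0 with PTUPB alone. Of 18 cytosolic aminoacyl-tRNA synthetases 6 were higher, led by YARS1 (1.59) and GARS1 (1.51), and 2 were lower, IARS1 (-1.30) and QARS1 (-1.14), with a median of 0.65. The 2 lower of 18 are near the share of all genes. Among 6 stress-induced hormones FGF21 was higher (1.37), STC2 was lower (-1.34), and GDF15, a growth-differentiation factor released under stress, stood at 38.1 and 71.1 FPKM (0.88). That is 1 of 6 each way, near the shares of all genes.

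p53 targets had the highest median step of the lists with 5 or more members, as deposited. Of 22 members 17 were higher and 0 lower, with a median of 1.74 against 1.37 without enzalutamide. Rescaled to TPM the 2 medians were 1.83 and 1.82, and 19 members were higher without enzalutamide in place of 14, so the gap depended on scaling. GADD45A, a stress sensor of DNA damage and growth arrest, stood at 7.21 FPKM in the control, 7.49 with enzalutamide, 5.69 and 115 with PTUPB alone, and 10.1 and 226 in the combinations (22.4-fold, interval 20.5 to 24.5). CDKN1A (p21), the cyclin-dependent kinase inhibitor, stood at 48.4 FPKM with enzalutamide, 50.4 at 10 µM and 469 at 20 µM, and without enzalutamide at 25.2 and 427 FPKM. The 20 µM libraries were near each other, and the 10 µM libraries differed, so its step was smaller with enzalutamide (3.19) than without (4.03). AEN, an apoptosis-enhancing nuclease, had 3.21 against 1.98 without, and the ubiquitin ligase MDM2, which limits p53, 1.73 against 1.61. The 5 members not called were TP53INP1 (-0.59), SUSD6 (0.01), PMAIP1 (0.90), FAS (0.90) and SESN1 (0.91). Several of these genes are also known ATF4 or stress-kinase targets, so the list's name is not a measure of p53.

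Of 14 BCL2 family genes 5 were higher: BBC3 (PUMA, 2.05), HRK (1.94), BAK1 (1.43) and BAX (1.15), which promote cell death, and BCL2L1 (1.02), whose main product opposes it. The 2 lower members, BIK (-1.91) and BOK (-1.75), are also death-promoting. Of all genes 13.7% were higher and 14.7% lower, so the 2 of 14 lower are near the share of all genes. Among 14 death receptor, caspase and inhibitor genes TNFRSF10B (DR5), a TRAIL receptor and CHOP target, was higher from 53.6 to 113 FPKM (1.06), as was the inhibitor BIRC2 (1.15), and none was lower by log2 1. These 2 of 14 are near the 13.7% of all genes higher.

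**Figure D2:**
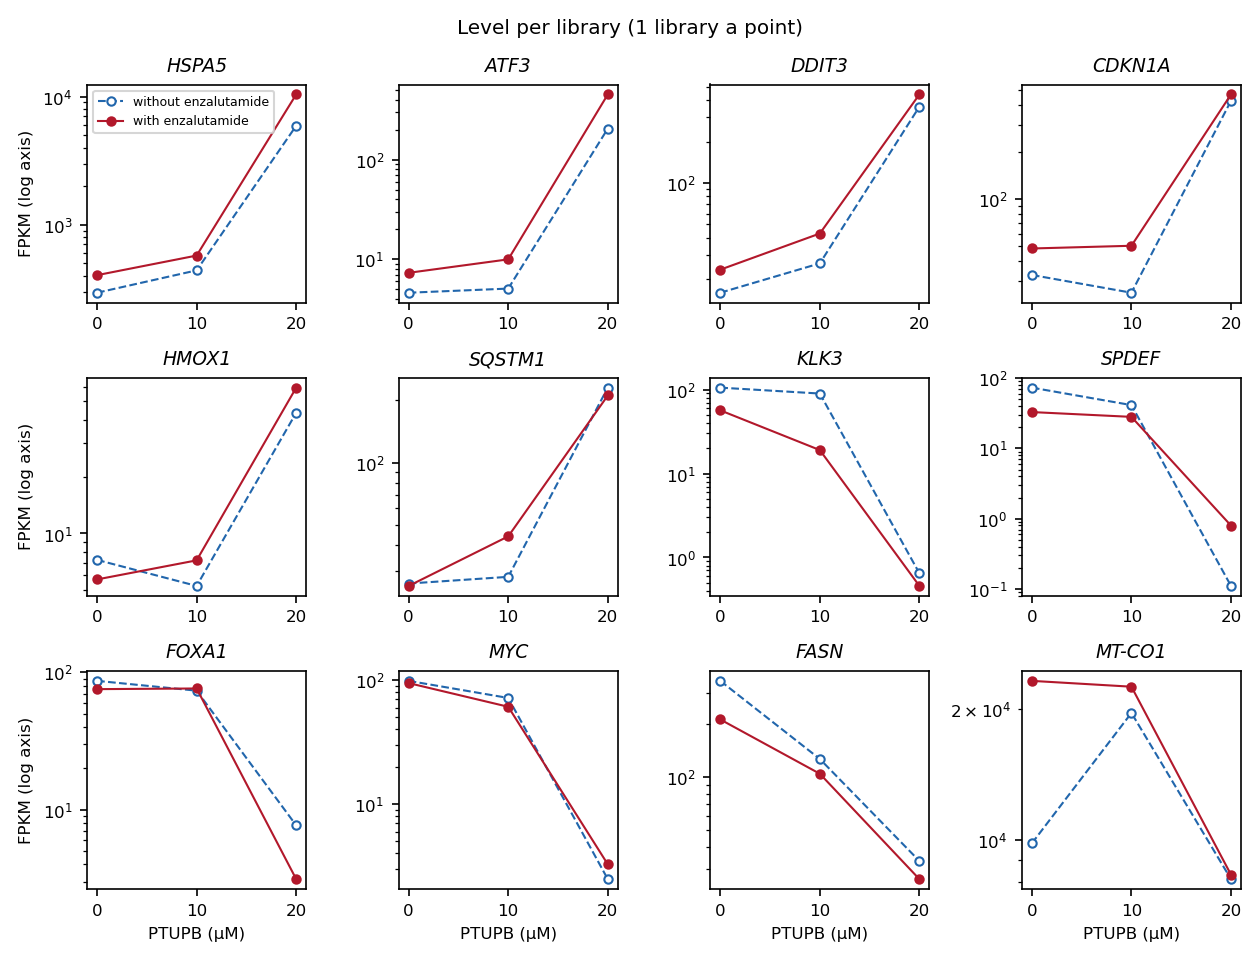
FPKM on a log axis against PTUPB dose in µM for 12 genes, filled points with enzalutamide and open points without (1 library a point, so no error bars). HSPA5, ATF3, DDIT3, CDKN1A, HMOX1 and SQSTM1 stand highest at 20 µM, and KLK3, SPDEF, FOXA1, MYC and FASN lowest, on both lines.

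The luminal transcription factors were lower at 20 µM with enzalutamide. Of 10 lineage factors and steroid receptors 7 were lower and 0 higher, beside 14.7% of all genes lower, with a median of -1.80 against -2.17 without enzalutamide. FOXA1, a pioneer factor of luminal cells, stood at 86.7 FPKM in the control, 75.5 with enzalutamide, 73.6 and 7.69 with PTUPB alone, and 76.3 and 3.12 in the combinations, 24.5-fold lower at 20 than at 10 µM (interval 21.4 to 28). It lay between 73.6 and 86.7 FPKM in the 4 libraries without 20 µM PTUPB and far below that in the other 2. SPDEF, an epithelial ETS factor, stood at 73 FPKM in the control, 32.8 with enzalutamide, 41.2 and 0.111 with PTUPB alone, and 28 and 0.797 in the combinations, 35.1-fold lower at 20 than at 10 µM (interval 24.2 to 53.1). Both 20 µM libraries were below the other 4. Among the other lower members HOXB13 had a step of -2.64, CREB3L4 -1.65 and GRHL2 -1.13. The 3 members not called were GATA2 (-0.66), EHF (-0.64) and ELF3 (0.49).

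Androgen-induced genes leaned downward. Of 25 members 13 were lower and 4 higher, beside 14.7% and 13.7% of all genes. The median was -1.06 against -1.88 without enzalutamide. KLK3 (PSA) stood at 105 FPKM in the control, 56.6 with enzalutamide, 89.7 and 0.648 with PTUPB alone, and 19 and 0.458 in the combinations. The lower-dose combination was below the control, enzalutamide alone and 10 µM PTUPB alone, so the 41.5-fold difference (interval 30.3 to 58.5) from 10 to 20 µM started from a lower level than the 138-fold difference without enzalutamide. STEAP2, a metalloreductase, had -4.58 with enzalutamide and -3.14 without, C1orf116 -2.97 and -3.17, and the lipid phosphatase PLPP1 -2.51 and -4.21. FKBP5, a co-chaperone of steroid receptors, stood at 35.4 FPKM in the control and 6.21 with enzalutamide, and at 4.33 and 3.73 in the combinations, a step of -0.17 against -1.69 without enzalutamide. The 4 higher members were ZBTB10 (1.85), GNMT (1.57), NDRG1 (1.31), which is also hypoxia-induced, and TRPM8 (1.18), a cation channel at 0.0287 and 1.33 FPKM. A count of 4 in 25 is near the share of all genes higher and is not a result about this list.

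Genes that androgen represses were lower at 20 µM as well, not higher. Of 7 analysed 6 were lower and 0 higher, with a median of -3.15. UGT2B15, which conjugates androgens for excretion, stood at 9.79 FPKM in the control, 22.4 with enzalutamide and 30.2 at 10 µM (1655 fragments), and had no fragment at 20 µM, which makes it at least 383-fold lower against a floor of 3 fragments in that library. FOLH1 (PSMA), the surface peptidase, stood at 252 FPKM in the control, 426 with enzalutamide, 481 at 10 µM and 40.8 at 20 µM, an 11.8-fold difference between the doses. Both genes stood above the control in the lower-dose combination and below it in the higher-dose combination. MET was the member not called (-0.97).

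Of 17 luminal secretory and surface genes 10 were lower and 3 higher, beside 14.7% and 13.7% of all genes, with a median of -1.40. The 3 higher are near the share of all genes. SPON2, a secreted matrix protein, stood at 369 FPKM at 10 µM and 10.2 at 20 µM with enzalutamide (36.2-fold), and at 396 and 13.9 without. ACP3, prostatic acid phosphatase, had 2448 fragments at 10 µM and 2 at 20 µM, a ratio of FPKM of 850 with a counting interval of 235 to 7021. STEAP1 had -3.95. The 3 higher members were LCN2, a stress-induced lipocalin (1.28), the simple-epithelium keratin KRT18 (1.13) and TRPM8. KRT8, the partner of KRT18, had 0.91, and the adhesion molecules EPCAM and CDH1 had -0.59 and 0.60. In 20 epithelial junction and splicing genes 3 were lower, the protease ST14 (-1.96), CLDN4 (-1.93) and JUP (-1.28), 0 were higher, a share of lower members near the 14.7% of all genes, and the median was -0.56. Of the 4 mesenchymal genes analysed VIM had -0.82, FN1 -0.73, SNAI1 0.08 and the integrin ITGA5 -1.48.

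Cell cycle genes were already low at 10 µM with enzalutamide. The median level of 32 mitotic genes was 15.1 FPKM in the control, 11.4 with enzalutamide, 11.3 with PTUPB at 10 µM and 0.676 with PTUPB at 20 µM. In the combinations it was 3.69 FPKM at 10 µM and 1.54 at 20 µM. All 32 genes stood lower in the lower-dose combination than in either single-agent library, enzalutamide alone or 10 µM PTUPB alone. From 10 to 20 µM with enzalutamide 26 stood lower and 6 higher, of which 12 were lower by log2 1 and 0 higher, with a median step of -0.52, against 31 lower and a median of -2.72 without enzalutamide. At 20 µM 26 of the 32 stood above their level with PTUPB alone.

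CDC20, the activator of the anaphase-promoting complex, stood at 41.4 FPKM in the control, 30.3 with enzalutamide, 30.2 and 1.79 with PTUPB alone, and 9.25 and 16.7 in the combinations. It was higher at 20 than at 10 µM with enzalutamide by log2 0.79, under the threshold, and had a step of -3.49 without. HMMR, a spindle protein, had -0.19 and -3.71, and the survivin gene BIRC5 -0.45 and -3.81. The proliferation marker MKI67 stood at 12.3 FPKM in the control, 8.27 with enzalutamide, 11.3 and 0.932 with PTUPB alone, and 3.30 and 0.813 in the combinations. It was at its lowest in both 20 µM libraries, and its step was -1.25 with enzalutamide and -2.66 without. ANLN, a cytokinesis scaffold, had the largest downward step of the list (-1.68), followed by KIF2C (-1.66), CCNA2 (-1.63) and AURKB (-1.57). The 1 added before the log shrinks the steps of genes at a few FPKM, so steps and folds rank differently. CCNA2 was 24.6-fold lower with enzalutamide and 23.2-fold without, at steps of -1.63 and -2.86. ANLN was 4.63-fold lower with enzalutamide and 33.5-fold without.

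The cell cycle homology region, TTTGAA, through which the DREAM and MMB complexes act on mitotic genes, was searched on either strand. It was found in 21 of 34 windows of mitotic genes (61.8%), 15.2% of all windows and 9.79% of the windows of analysed genes. By gene, 19 of 28 mitotic genes with a promoter window held it. The 19 had a median step of -0.56, with 7 lower, beside -0.52 and 12 of 32 in the whole list. The members with the largest downward and the largest upward step are shown, matches in capitals.
ANLN (chr7:36389782-36389861, plus strand): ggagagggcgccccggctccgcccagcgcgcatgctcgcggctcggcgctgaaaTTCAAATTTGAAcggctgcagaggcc
CDC20 (chr1:43358901-43358980, plus strand): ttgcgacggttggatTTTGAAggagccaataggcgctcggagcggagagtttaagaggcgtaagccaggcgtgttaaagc

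The 32 replication licensing and G1/S genes had a median level of 10.8 FPKM in the control, 8.7 with enzalutamide, 9.03 and 2.25 with PTUPB alone, and 4.59 and 2.23 in the combinations. In the lower-dose combination 31 of 32 stood below enzalutamide alone. From 10 to 20 µM 12 were lower by log2 1 and 1 higher (median -0.84), against 26 lower without enzalutamide (median -1.55). The helicase subunit MCM3 went from 12.6 to 2.25 FPKM, and UHRF1, a maintenance factor of DNA methylation, from 2.54 FPKM (346 fragments) to no fragment, at least 80.1-fold lower. RRM2, the small subunit of ribonucleotide reductase, had -1.89. CDC6, a licensing factor, was the higher member, at 4.52 and 14 FPKM (1.44), and stood at 8.58 and 5.19 without enzalutamide. E2F1 had -0.82 against -2.21 without. The list medians stood side by side at 20 µM (2.23 and 2.25 FPKM) and apart at 10 µM (4.59 and 9.03). These levels are on the deposited scale. There the summed FPKM of the 20 µM libraries was 332563.9 with enzalutamide and 266625.4 without. The near equality at 20 µM therefore depends on the scale.

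**Figure D3:**
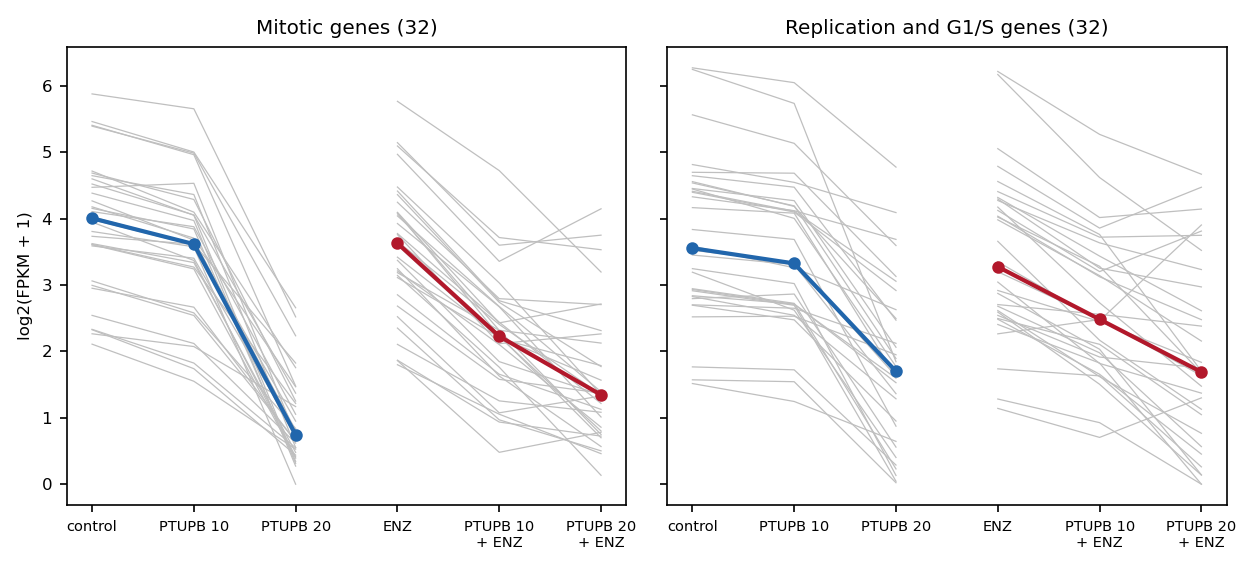
log2(FPKM + 1) of 32 mitotic genes and 32 replication and G1/S genes in the 6 libraries (1 library a position). Grey lines are genes and thick lines their medians, blue without enzalutamide and red with it. The red medians are already low at 10 µM (3.69 and 4.59 FPKM), and the blue ones drop between 10 and 20 µM.

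Among 14 G1 cyclins, kinases and inhibitors 4 were higher, all inhibitors: CDKN1A, CDKN1B (p27, 18.1 to 65.1 FPKM, 1.79), CDKN2B (1.34) and CDKN2D (1.10). Cyclin D1, CCND1, was the lower member, at 52.3 FPKM in the control, 48.1 with enzalutamide, 37.4 at 10 µM and 3.87 at 20 µM (9.66-fold lower). In 13 homologous recombination and Fanconi genes 4 were lower, RAD54L (-1.87), BARD1 (-1.56), FANCD2 (-1.17) and BRCA1 (-1.16), and RAD51C was higher (1.45), with a median of -0.85. Of 12 replication-dependent histone genes 2 were higher, H1-2 (2.36) and H1-4 (2.33), and 0 lower, with a median of 0.58 against 0.93 without enzalutamide.

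MYC, a driver of growth and ribosome production, stood at 98.5 FPKM in the control, 94.5 with enzalutamide, 71.7 and 2.48 with PTUPB alone, and 60.9 and 3.27 in the combinations, an 18.6-fold difference between the combination doses (interval 16 to 21.7). Of the other 11 members of the MYC and MAX network MXD1, an antagonist that pairs with MAX, was higher (1.47), MLXIPL was lower (-1.04) and MAX itself had 0.33. In all 1 of 12 was higher and 2 were lower, beside 13.7% and 14.7% of all genes. Nucleolar ribosome biogenesis genes, many of them known MYC targets, had no member lower by log2 1. RRP12 (1.19), NPM1 (1.17), PES1 (1.14) and RRP9 (1.04) were higher, with a list median of 0.21 against -0.34 without enzalutamide (0.26 and -0.06 when rescaled to TPM). These 4 of 21 stand beside 13.7% of all genes higher. In 5 equal bins of protein-coding genes by mean FPKM the share was 17.2% in bin 4 and 20.7% in bin 5, the highest. That mean includes the libraries compared, so the bins are not an independent yardstick. The count of 4 is not read as a result about this list. The 28 cytosolic ribosomal protein genes had a median step of 0.64 against 0.04 without enzalutamide, with 2 higher, RPS19 (1.02) and RPS6 (1.00), and 1 lower, RPL7A (-1.16). Rescaled to TPM the 2 medians were 0.66 and 0.33, so the size of the gap depended on scaling. Their levels lay between 14.6 FPKM for RPL22 and 1746 for RPS6 at 20 µM.

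Gene length and level moved with the step with enzalutamide. In 5 equal bins of the protein-coding genes by exon length the median step was 0.27, 0.13, 0.06, -0.02 and -0.08 from the shortest to the longest with enzalutamide, and -0.04, -0.03, 0.02, 0.01 and 0.08 without. In 5 equal bins by mean FPKM it was -0.21, -0.03, 0.08, 0.20 and 0.31 from the lowest to the highest with enzalutamide, and -0.06, 0.02, 0.06, 0.05 and -0.03 without. With enzalutamide the share called higher was 21.1% in the shortest bin and 7.5% in the longest. By mean FPKM it was 5.9% in the lowest bin and 20.7% in the highest. The mean is over all 6 libraries and includes those compared, so a gene that rises moves toward a higher bin. Part of the trend with level is therefore built in, and how much was not tested. The share of all genes higher is a low yardstick for lists of short genes. For lists of abundant genes it may be low as well, but these bins cannot show by how much. The median exon length was 3718 bases for the ribosomal protein genes, 3301 for the proteasome genes, 3286 for the nuclear respiratory chain genes and 5095 in the middle bin of all protein-coding genes. Their part in the results on those lists was not tested.

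All 13 mitochondrially encoded mRNAs had negative steps, 9 of them past log2 1, with a median of -1.22 with enzalutamide and -1.19 without. MT-CO1, a core subunit of cytochrome oxidase, stood at 9808 FPKM in the control, 23260.0 with enzalutamide, 19613 and 8108 with PTUPB alone, and 22549 and 8302 in the combinations. The 20 µM libraries and the control were low, and the other 3 libraries high. Steps ran from -2.01 for MT-CO3 and -1.79 for MT-CYB to -0.74 for MT-ND4. The 26 nuclear-encoded respiratory chain genes did not move with them: 1 was lower, NDUFB3 (-1.51), 0 were higher, and the median was 0.06, which was below 0 when scaled by total fragments (-0.11), by median of ratios or by housekeeping genes (-0.10). Of 21 glycolysis genes HK2, the first enzyme of the pathway, was higher at 10.9 and 54.2 FPKM (2.21, 2.00 without enzalutamide), and 0 were lower, with a median of -0.24. LDHA had -0.89 against -1.90 without. Of 11 hypoxia-induced genes ERO1A (1.41), also an oxidase of the folding pathway, and NDRG1 were higher and EGLN3 was lower (-1.06), with a median of 0.70.

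Fatty acid synthesis genes were lower. Of 18 members 9 were lower and 0 higher, with a median of -0.99 against -1.12 without enzalutamide. SREBF1, the transcription factor of lipid synthesis, stood at 115 FPKM in the control, 124 with enzalutamide, 113 and 12.6 with PTUPB alone, and 98.6 and 9.48 in the combinations (10.4-fold lower at 20 µM). The desaturase FADS2 had -3.09, SCD5 -2.51 and the elongase ELOVL6 -2.40. FASN, fatty acid synthase, stood at 350.4 FPKM in the control, 212 with enzalutamide, 104 at 10 µM and 26.3 at 20 µM, so it was lower at each dose. The 20 cholesterol synthesis and uptake genes did not follow: 3 were lower, among them LSS (-1.76) and the regulator SREBF2 (-1.30), 1 was higher, and the median was 0.29 against -0.21 without enzalutamide. HMGCS1, an early enzyme of the pathway, had 0.76. Among 8 LXR targets and export genes the lipid remodelling enzyme LPCAT3 was lower (-1.57) and the receptor NR1H2 higher (1.02), with a median of -0.01 that was above 0 when rescaled to TPM. That is 1 of 8 each way, near the shares of all genes.

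Of 13 PPAR and fatty acid oxidation genes 4 were lower and PPARG was higher (1.13). CPT1A, which admits fatty acids to mitochondria, went from 36.2 to 6.68 FPKM. Lower members also included CPT2 (-1.29) and VLDLR (-1.15). In the list of the drug's targets and the neighbouring eicosanoid genes 6 of 12 were lower and 1 was higher, with a median of -1.05. EPHX2, which encodes soluble epoxide hydrolase, stood at 8.97 FPKM in the control, 8.35 with enzalutamide, 8.78 and 3.26 with PTUPB alone, and 7.97 and 3.62 in the combinations (step -0.96). The cyclooxygenase-2 gene PTGS2 did not reach the mean level required. Lower members included the phospholipase PLA2G2A (-2.12), the prostaglandin synthase PTGES (-1.89) and EPHX4 (-1.49), and CYP4F11 was higher (1.28). Of 4 carbonic anhydrases, which sulfonamide inhibitors can bind, CA12 went from 24.2 to 1.49 FPKM (-3.34) and CA11 was lower (-1.31). Of 8 androgen-making enzymes SRD5A3 (-1.89) and STS, the steroid sulfatase (-1.45, 301 fragments to 1), were lower, and AKR1C3 stood at 0.351 and 1.64 FPKM with enzalutamide and at 0.0597 and 5.58 without.

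NRF2 targets were higher, though less widely than without enzalutamide by their values. Of 17 9 were higher and 0 lower with a median of 1.03, against 12 higher and a median of 1.33 without, a difference that was not tested. HMOX1, heme oxygenase, stood at 7.25 FPKM in the control, 5.71 with enzalutamide, 5.28 and 43.6 with PTUPB alone, and 7.21 and 59.2 in the combinations (8.21-fold). GCLM, the modifier subunit of glutathione synthesis, had 2.64 against 3.96 without, BLVRB 2.53 and SRXN1 2.41. The catalytic subunit GCLC had -0.23 and the quinone reductase NQO1 0.42. Of 15 iron and ferroptosis genes FTH1 and FTL, the ferritin chains, had 1.79 and 1.43, with SLC3A2 and HMOX1 also higher, and STEAP3 (-1.89) and LPCAT3 lower.

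The 3 metallothionein genes analysed were higher with enzalutamide and within log2 1 of 0 without. MT2A stood at 81.8 and 249 FPKM in the combinations and at 66.3 and 69.2 with PTUPB alone, MT1X at 7.36 and 23.5 against 9.41 and 6.33, and MT1F at 4.35 and 13.5 against 5.64 and 5.78. The list also holds 2 zinc transporters, SLC30A1, with 0.98 and 0.33 without enzalutamide, and SLC39A10, with -0.82 and, past log2 1, -1.02 without. Of the 6 AHR and xenobiotic genes GSTA1, a glutathione transferase, was lower (-4.00) and TIPARP (2.45) and ARNT (1.05) higher, with a median of -0.10 whose sign turned with a pseudocount of 5.

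Of 16 cytosolic heat shock genes 6 were higher and 3 lower, beside 13.7% and 14.7% of all genes, with a median of 0.24. The 3 lower are near the share of all genes. HSPA8, the constitutive HSP70, was lower (369 to 114 FPKM, -1.69), as were HSPE1 (-1.33) and HSPB1 (-1.02). The co-chaperones DNAJB4 (1.45), BAG3 (1.39) and DNAJB1 (1.39) were higher, and without enzalutamide BAG3 had 0.22 and DNAJB1 -0.09. Proteasome subunit genes leaned upward, with 8 of 21 higher, 0 lower and a median of 0.91 against 0.42 without enzalutamide. Rescaled to TPM these medians were 0.96 and 0.73, and 4 members were higher without enzalutamide in place of 0. The ATPase subunit PSMC4 went from 32.1 to 107 FPKM (1.70). The step was 1.64 in the catalytic subunit PSMB6 and, in PSMB5, 0.05.

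Of 22 autophagy genes 8 were higher and 1, the reticulum receptor RETREG1 (-1.18), was lower, beside 13.7% and 14.7% of all genes. The median was 0.63 against 0.62 without enzalutamide. SQSTM1 (p62), a cargo receptor, stood at 25.3 FPKM with enzalutamide, 44 at 10 µM and 211 at 20 µM, and OPTN, another receptor, had 2.85. MAP1LC3B, which coats autophagosomes, had 2.21 and the kinase scaffold RB1CC1 1.85. In 27 lysosome and MiT/TFE genes 7 were higher and 0 lower, beside the same shares of all genes. The median was 0.24 against 0.32 without enzalutamide, and 0.08 with enzalutamide when scaled by total fragments. The higher members were led by GPNMB (10.7 to 52.1 FPKM, and 4.93 to 119 without enzalutamide), RRAGC (1.72), MITF (1.67) and RRAGD (1.65). The lysosomal hydrolases themselves lay within log2 1 of 0, from -0.88 for CTSA and CTSZ to 0.62 for NEU1.

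Immediate early genes were higher in 7 of 11 with 0 lower, and their median step of 1.46 compared with 0.96 without enzalutamide. The shares of all genes, 13.7% higher and 14.7% lower, stand beside this count and the other counts of this paragraph. The AP-1 subunit JUNB went from 13.7 to 87.6 FPKM (2.59), JUN from 17.2 to 64.6 (1.85), MAFF had 2.07 and IER5 2.04. Of 10 MAP kinase phosphatase and feedback genes 4 were higher, DUSP5 (2.39), ERRFI1 (1.66), DUSP8 (1.51) and DUSP1 (1.46), and 0 lower. Of 10 NF-kB genes 4 were higher, RELB (2.40) and the inhibitors NFKBIB (2.32), NFKBIA (1.46) and NFKBIE (1.10), and TNFAIP2 was lower (-1.45). NFKBIA had -0.13 without enzalutamide. Of 11 interferon genes IRF1 (1.73), IRF7 (1.56) and ISG15 (1.10) were higher and 0 lower, with a median of -0.10 whose sign turned when only genes of mean FPKM of 5 or more were kept. Of 11 antigen presentation genes CALR was higher and the peptide transporter TAP2 lower (-1.13), 1 each way and no larger a share than in all genes. Of 7 WNT, BMP and YAP target genes CCN1 (2.06) and ID3 (1.18) were higher and ID1 (-2.00) and ZNRF3 (-1.54) lower.

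Of 11 long noncoding RNAs 5 were higher, GAS5 (2.03), PCAT6 (1.82), EPB41L4A-AS1 (1.64), ZFAS1 (1.49) and SNHG12 (1.07), and DANCR was lower (-1.86), with a median of 0.26 whose sign turned with no filter on low values. GAS5, a snoRNA host gene, went from 119 to 491 FPKM. The 15 housekeeping genes had a median of 0.16, which was -0.02 when scaled by total fragments. HPRT1 had the lowest step of them (-0.81), and 2 were higher, among them ACTB (1.07). Shares near those of all genes (13.7% higher, 14.7% lower), as in the housekeeping, histone, hypoxia and cholesterol lists, are not results about those lists. The same holds for the stress hormone, MYC and MAX network, LXR and antigen presentation lists.

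**Figure D4:**
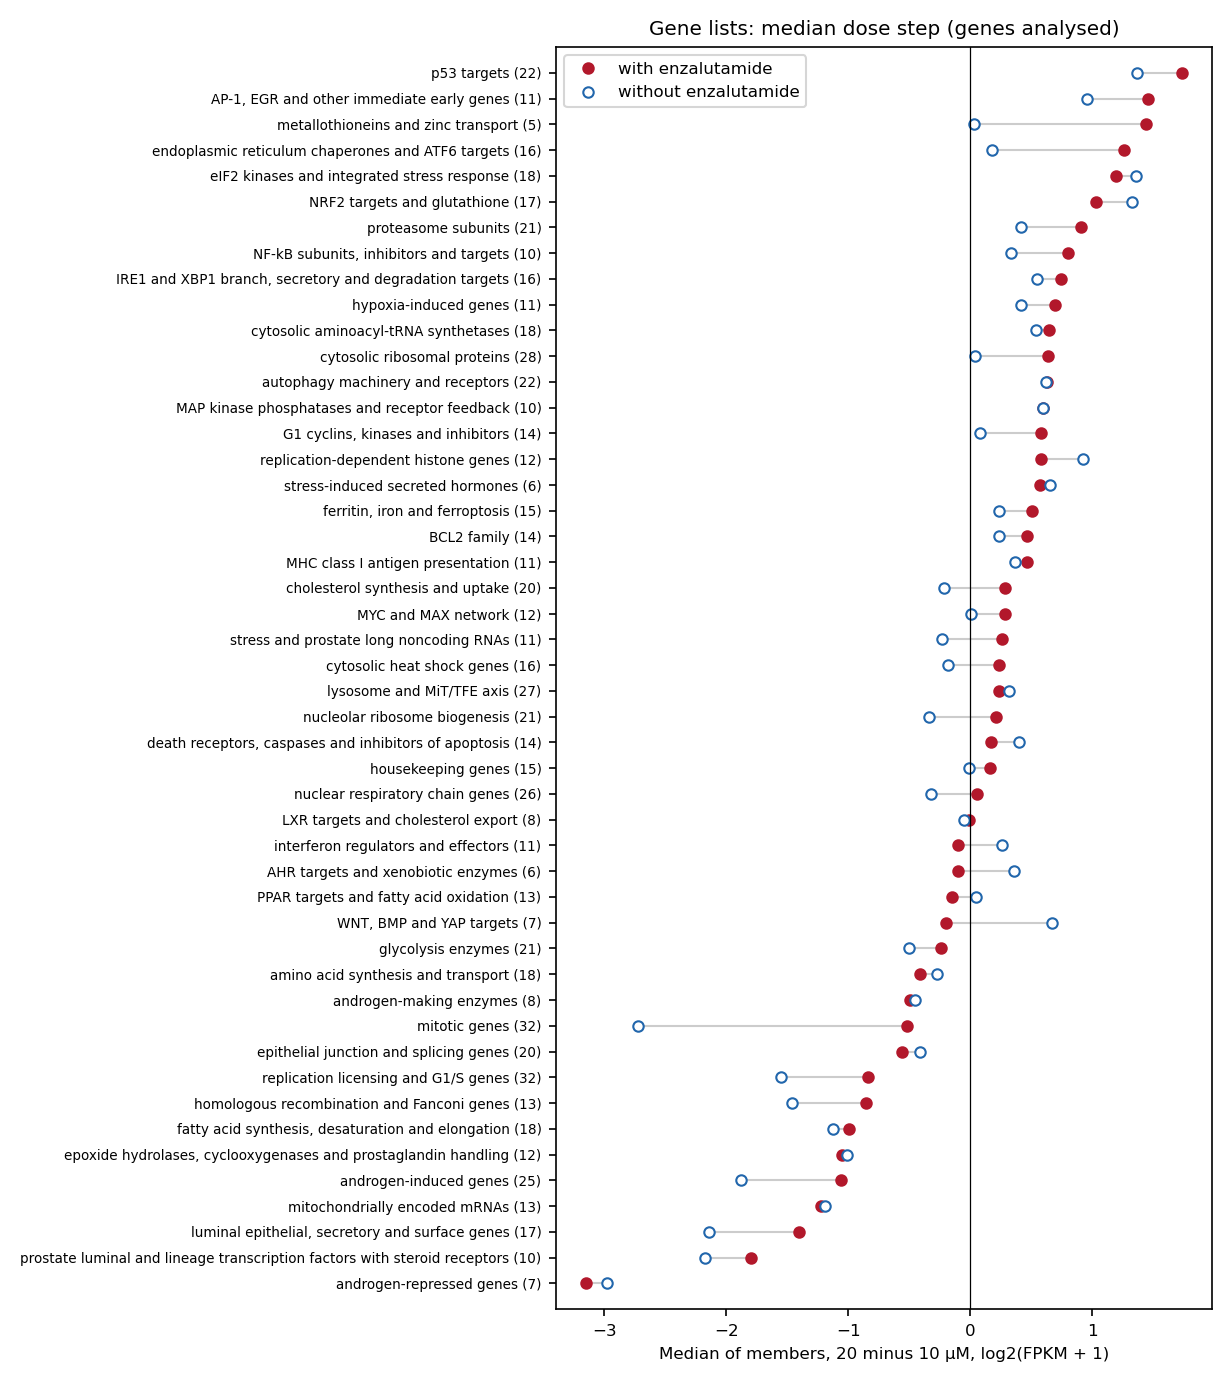
Median dose step of each gene list with 5 or more members analysed, in log2(FPKM + 1), filled points with enzalutamide and open points without (number of genes in brackets; each step is 1 library against 1). p53 targets stand at the top (1.74) and androgen-repressed genes at the bottom (-3.15), and the widest gap is that of mitotic genes (-0.52 against -2.72).

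Beyond the lists, the largest upward steps among genes with 5 FPKM and 50 fragments in the higher library included GEM, a small GTPase, from 0.715 to 21.4 FPKM (29.9-fold, 22.5 to 40.6), and UPP1, uridine phosphorylase, from 2.70 to 44.9. CHST1, a sulfotransferase, went from 0.316 to 13.5 FPKM (42.8-fold) and H3Y1, a histone variant gene, from 0.542 to 17.6. GADD45B, a relative of GADD45A, stood at 3.46 FPKM in the control, 3.13 with enzalutamide, 1.65 and 3.46 with PTUPB alone, and 1.15 and 21.2 in the combinations. It was highest in the higher-dose combination by a wide margin, with a step of 3.37 against 0.75 without enzalutamide. The noncoding DCTN6-DT had 3.60, and the rRNA pseudogene RNA5SP155 had 63 fragments at 20 µM and 0 at 10 µM, at least 30.2-fold higher. GEM, CHST1, H3Y1 and RNA5SP155 were below 1 FPKM in each library without 20 µM PTUPB. They passed the filter on mean FPKM only through the 20 µM libraries, so their place among the genes analysed rests on the values compared. The same holds for list members such as HRK, CDKN2B, IRF1, RELB and AKR1C3.

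The largest downward steps included SLC22A3, an organic cation transporter, from 85.4 to 2.39 FPKM (35.7-fold, 30.3 to 42.3). BAMBI, a decoy receptor of TGF-beta family ligands, stood at 49.7 FPKM in the control, 147 with enzalutamide, 112 at 10 µM and 5.30 at 20 µM, so it was highest with enzalutamide and lowest at 20 µM. RAMP1, an accessory subunit of the calcitonin-family receptors, went from 37.2 to 1.19 FPKM (31.2-fold). The mitochondrial tRNA genes MT-TR and MT-TH had 137 and 67 fragments at 10 µM and none at 20 µM, at least 31.7-fold and 15.5-fold lower, and an mRNA library does not target such short RNAs. Of the genes whose step was lower with enzalutamide than without, IGFBP3, an insulin-like growth factor binding protein, stood at 11.9 and 2.11 FPKM with enzalutamide and at 3.18 and 5.58 without, and LRP8-DT had 110 fragments at 10 µM and none at 20 µM with enzalutamide.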

How the data were processed

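RNA from each treatment was sequenced as a paired-end mRNA library (1 library a group). Per the submitters' processing notes the authors used HISAT and Cufflinks, with no versions or genome build given. The values are FPKM as the authors deposited them, and they were used without rescaling. All 58735 gene identifiers matched GENCODE 29 and 58207 a table of gene names. Whole fragments were recovered from the exon lengths (100.0% of values up to 30 fragments within 0.05 of a whole number in each library). The 12960 genes at a mean FPKM of 1 or more were kept, and the difference of log2(FPKM + 1) between the 2 combination libraries was counted at log2 1 or more, with no test. Fold intervals (95%, exact binomial on fragments) cover counting error, and folds against 0 use a floor of 3 fragments.

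The 55 gene lists, the members and the naming rule were chosen with earlier results of these data known. The rule named the 12 largest differences per direction (5 FPKM and 50 fragments or more in the higher library), up to 4 members per list and any in a count of 5 or fewer, a fixed set of 26, the 6 largest excesses per direction over the step without enzalutamide and up to 5 genes of opposite direction. Some genes that the rule names are not reported here. Other list members named, and genes named for a promoter match, were chosen after their values were seen. Alternatives were pseudocounts of 0.1 and 5, no filter and mean FPKM of 5 or more, TPM, total fragments, median of ratios and housekeeping centring. The step and its threshold were checked on 1 simulated pair of libraries with equal scaling and genes of 50 or more fragments. Fragment recovery, fold intervals and low genes were not part of that check. Python 3.11.15, numpy 2.4.6, pandas 2.3.3, scipy 1.17.1 and matplotlib 3.10.9 were used. Promoters are RefSeq windows of 300 bases (GRCh38.p14).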

Additional observations from a re-analysis of the deposited data

Results flagged for a closer look

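In 8 genes past the minimum levels the dose step went past log2 1 in opposite directions with and without enzalutamide. Each rests on 4 libraries, 1 a group, and the difference was not tested. ID1, an inhibitor of basic helix-loop-helix factors, stood at 23.4 and 5.08 FPKM at 10 and 20 µM with enzalutamide and at 6.75 and 19.8 without, a step with minus a step without enzalutamide of -3.43. Its lower-dose combination and its 20 µM PTUPB library were high and the other 4 libraries were below 10 FPKM. The snoRNA host gene SNHG9 stood at 1.99 and 5.44 FPKM with enzalutamide and 3.62 and 1.31 without (2.11), on 29 and 55 fragments in the combinations. SNORD19C, a small nucleolar RNA, had 51 and 75 fragments in the combinations (2.25). LINC02983 stood at 5.72 and 1.62 FPKM with enzalutamide and 2.76 and 7.26 without (-2.50). The other 4 have no symbol in the table used, ENSG00000223461 and ENSG00000269978 with 3.53 and 3.10, ENSG00000227719 with -2.86, and another noncoding gene with 2.90. All but ID1 and LINC02983 had 122 fragments or fewer in each combination library, so counting error is large for them.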

How the results depend on the processing

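A pseudocount of 5 gave 867 genes higher and 548 lower with enzalutamide, and 628 past log2 1 one way in both steps, against 1775, 1900 and 1768 as reported. Keeping genes of mean FPKM of 5 or more (7256) gave 1239 higher, 904 lower and 1099 in both steps. Without enzalutamide the counts of 1202 higher and 1692 lower became 451 and 618 with a pseudocount of 5, 703 and 897 at a mean FPKM of 5 or more, and 2524 and 1601 when rescaled to TPM. A higher pseudocount shrinks the difference of low genes by construction, and a higher filter tests fewer genes. Apart from these, the counts of higher and lower genes in each step and of genes called one way in both stayed within 1.5 times of those reported under a pseudocount of 0.1, no filter, TPM, total fragments, median of ratios and housekeeping centring. Of 192 named genes past log2 1, 50 were under it with a pseudocount of 5, 15 with total fragments, 14 with housekeeping centring, 8 with median of ratios, and 0 with a pseudocount of 0.1 or TPM, and none of the 192 changed sign. No list median with enzalutamide changed sign in these settings except those of stromal markers, nuclear respiratory chain, LXR, AHR, interferon, housekeeping and noncoding RNA genes. No paired analysis was possible because each group has 1 library and the dose step with enzalutamide is 1 library against 1, and no library could be left out of it. An additive fit of dose and enzalutamide over the 6 libraries, which addresses the mean of both steps and not this one, was not run. Depth limits low genes: at 20156523 fragments a gene with 3 fragments or fewer cannot be told from 0, and steps between single libraries include any difference between cultures, which was not tested.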
